A study of Caenorhabditis elegans with 9 samples.

Results

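Levels of 7 genes of the methionine cycle and the folate cycle that feeds it were followed on 9 arrays of Caenorhabditis elegans RNA. The genes were metr-1, mtrr-1, mthf-1, mel-32, dao-3, sams-1 and ahcy-1, taken as the probe sets that the platform annotation gives to exactly 1 of these symbols. That rule found 9 probe sets for the 7 genes, out of 22548 probe sets and 17118 singly named genes on the array. sams-1 had 3 probe sets and each of the others had 1. RNA of whole animals labelled as young adults was hybridised to 1-colour Affymetrix arrays, 3 per group. The groups were strain SX9, with the double genotype prg-1(n4503) prg-2(nDf57), strain MT14769, with prg-1(n4357) prg-2(n4358), and N2, the standard wild type. prg-1 encodes a Piwi-class Argonaute, the partner of germline piRNAs, and the study set independent double mutants of prg-1 and its relative prg-2 against wild type. No treatment is named for any group, and the labels do not say whether replicates came from separate cultures, so each p-value speaks of the spread among these RNA samples, which may be partly technical. In RNA of whole animals, fewer cells of a type and less RNA per cell cannot be told apart.

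The methionine cycle makes S-adenosylmethionine, the methyl donor for phospholipids, histones and nucleic acids, and recycles what is left after the methyl group has been given away. The folate cycle supplies the methyl group that turns homocysteine back into methionine, in a step that needs vitamin B12 as cofactor. In C. elegans the same vitamin is needed to break down propionate, and animals short of it burn propionate through another route, the propionate shunt. acdh-1 encodes the acyl-CoA dehydrogenase of that shunt, and its transcript is known to be low in worms well supplied with B12 and high in worms that are not. The members were therefore also read against the acdh-1 level of the same array.

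Values are levels on the log2 scale made by the authors with RMA, and array medians lay between 4.76 and 4.83 log2. With 3 arrays per group, precision is limited by their number. prg-1 ran from 6.72 to 7.50 log2 in n4503 nDf57, from 5.47 to 7.94 in n4357 n4358 and from 5.40 to 6.93 in wild type. prg-2 ran from 5.87 to 6.27, from 5.46 to 6.10 and from 6.005 to 6.53 log2 in n4503 nDf57, n4357 n4358 and wild type. The labels do not place these probes inside or outside the mutated stretches, so the values check no label. The adult yolk gene vit-2 lay between 2.59 and 3.77 log2, below every array median, in animals labelled as young adults. The adult cuticle collagen col-19 ran from 3.42 to 7.29 log2 and was highest on n4503 nDf57 replicate 1, n4357 n4358 replicate 3 and wild-type replicate 2. The mean of 23 moulting genes, relative to all arrays, was lowest on the same arrays, at -0.47, -0.50 and -0.21 log2, against 0.05 to 0.36 on the other 6. These 3 arrays stood apart before any comparison of strains, and the groups held 1 each.

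acdh-1 varied more than any member. Its level was 10.76, 11.68 and 11.65 log2 in n4503 nDf57, 8.44, 4.51 and 10.34 in n4357 n4358, and 8.24, 3.77 and 9.54 in wild type. All n4503 nDf57 arrays lay above all others, while replicate 2 of n4357 n4358 and of wild type lay 3.73 log2 or more below the remaining 7 arrays. Those 2 arrays gave acdh-1 levels below their array medians, where RMA compresses differences, so differences that include them may be understated. Against wild type the n4503 nDf57 difference for acdh-1 was 4.18 log2 (SE 1.71), with a limma adjusted p of 1.0. For n4357 n4358 it was 0.58 log2 (SE 1.71; limma adjusted p = 0.961).

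The methionine synthase step was read by metr-1 and mtrr-1. metr-1, the B12-dependent methionine synthase, stood at 7.32, 7.87 and 7.27 log2 in n4503 nDf57, at 7.36, 7.97 and 7.03 in n4357 n4358, against 7.93, 7.01 and 7.70 in wild type. Group means of metr-1 were 7.48 ± 0.33, 7.45 ± 0.48 and 7.55 ± 0.48 log2 in that order (SD, n = 3 each), and the groups overlapped throughout. mtrr-1, the reductase that returns the synthase's cofactor to its active form, stood at 8.59, 8.77 and 8.49 log2 in n4503 nDf57, at 7.94, 7.86 and 7.98 in n4357 n4358, against 7.85, 7.71 and 8.48 in wild type. The n4503 nDf57 arrays were the highest of the 9 for mtrr-1, but the lowest of them, at 8.488 log2, lay next to wild-type replicate 3, at 8.481 log2. Group means of mtrr-1 were 8.61 ± 0.14 log2 in n4503 nDf57, 7.93 ± 0.06 in n4357 n4358 and 8.02 ± 0.41 in wild type (SD, n = 3 each). Replicates thus lay within 0.28 and 0.12 log2 in the mutants and within 0.77 log2 in wild type.

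Members that handle folate had ranges of different width over the arrays, and differences among them were not tested. mthf-1, the reductase that makes the methyl-folate used by methionine synthase, stood at 8.29, 8.66 and 8.16 log2 in n4503 nDf57, at 8.06, 8.25 and 8.12 in n4357 n4358, against 8.61, 7.43 and 8.08 in wild type. Wild-type replicate 2 was the lowest array for mthf-1, and wild type alone spanned 1.18 log2. mel-32, the serine hydroxymethyltransferase that loads folate with single-carbon units, stood at 11.18, 11.23 and 11.09 log2 in n4503 nDf57, at 10.98, 11.03 and 11.25 in n4357 n4358, against 11.07, 11.19 and 11.29 in wild type. It had the narrowest range of the 7 genes, 0.31 log2 or 1.24-fold over all arrays. dao-3, which encodes a methylenetetrahydrofolate dehydrogenase and cyclohydrolase, stood at 9.63, 9.48 and 9.29 log2 in n4503 nDf57, at 9.56, 8.96 and 10.03 in n4357 n4358, against 8.96, 9.72 and 9.51 in wild type. Its highest and lowest arrays, 1.07 log2 apart, both belonged to n4357 n4358. The probe sets of mthf-1, mel-32 and dao-3 are of a kind that may detect several related transcripts.

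S-adenosylmethionine is made by sams-1, the synthetase known for its part in phosphatidylcholine and fat metabolism of the worm. Its probe set with the highest mean, 192492_at, gave 10.75, 11.53 and 11.34 log2 in n4503 nDf57, 11.46, 11.77 and 10.98 in n4357 n4358, and 11.93, 10.76 and 11.63 in wild type. Each group held an array of low sams-1, the same 3 that were lowest in the moulting genes. The other probe sets followed it, with Pearson correlations over the 9 arrays of 0.94 for 174812_at and 0.98 for 192493_s_at, which are annotated to the same gene. Group means of sams-1 by 192492_at were 11.21 ± 0.41, 11.40 ± 0.40 and 11.44 ± 0.61 log2 in n4503 nDf57, n4357 n4358 and wild type (SD, n = 3 each). ahcy-1, the hydrolase that removes the S-adenosylhomocysteine left by methylation, stood at 12.33, 12.67 and 12.50 log2 in n4503 nDf57, at 12.50, 12.54 and 12.50 in n4357 n4358, against 12.50, 11.998 and 12.55 in wild type. Its levels overlapped between all groups, and the lowest array was wild-type replicate 2.

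**Figure D1:**
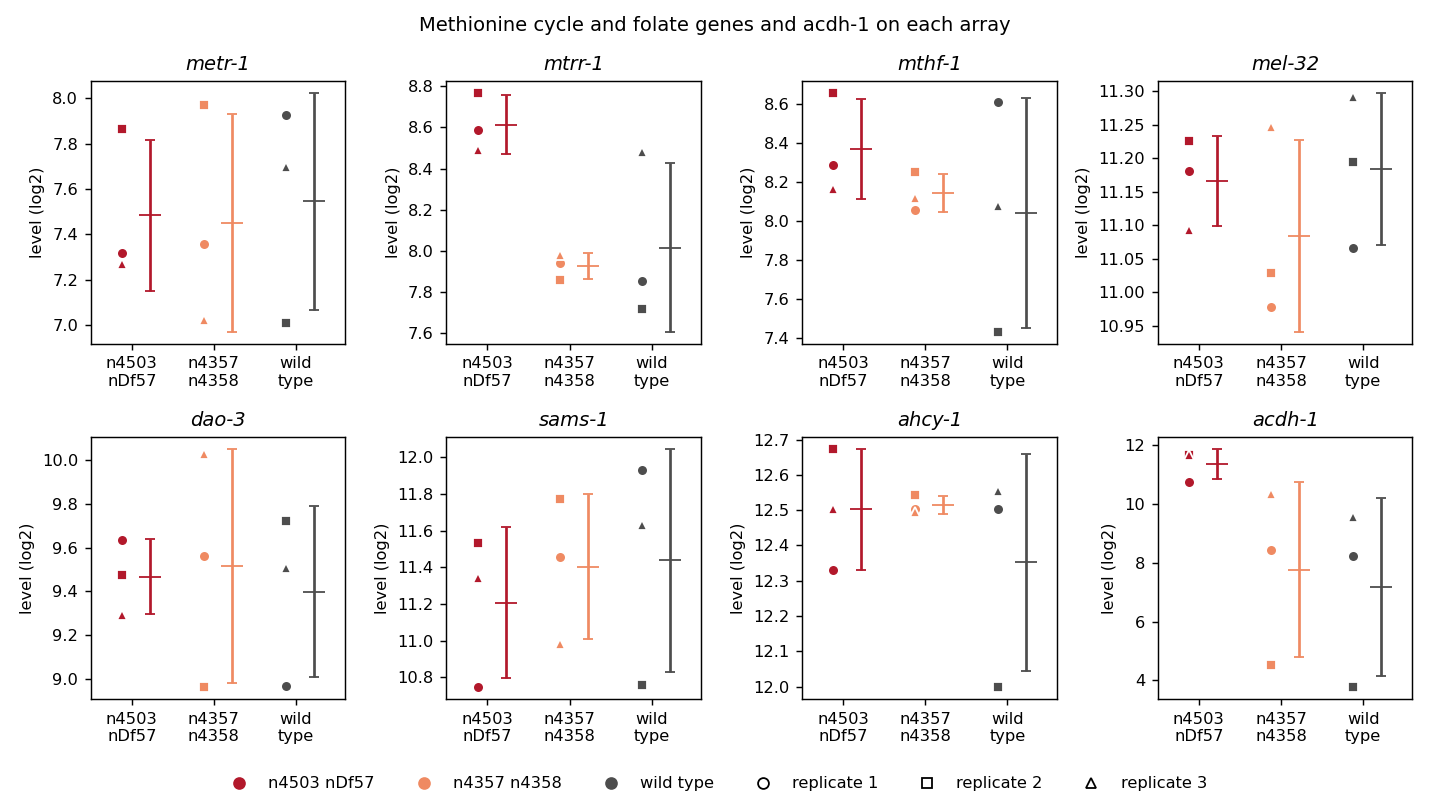
Level in log2 of each member (sams-1 by 192492_at) and of acdh-1 on every array, with a panel per gene and its own axis. Points are arrays, shaped by replicate number, and bars give the group mean and SD (n = 3). The n4503 nDf57 arrays were the highest for mtrr-1 and acdh-1, and the groups overlapped in the other panels.

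No member passed the test in any comparison of strains. With limma and Benjamini-Hochberg adjustment over all 22548 probe sets, 0 of 9 member probe sets were called in n4503 nDf57 against wild type, in n4357 n4358 against wild type, in both mutants averaged and set against wild type, or in n4503 nDf57 against n4357 n4358. The share called among all probe sets was 0% in each of these comparisons, which all draw on shared arrays. At an unadjusted limma p under 0.05, mtrr-1 was the only member gene in n4503 nDf57 against wild type and against n4357 n4358, where 2.83% and 2.47% of all probe sets reached it. No member probe set of n4357 n4358 lay wholly above or wholly below wild type, as 4.36% and 4.7% of all probe sets did, and none of n4503 nDf57 lay wholly below n4357 n4358, as 2.12% did. No member reached an unadjusted p under 0.05 in n4357 n4358 against wild type or in the mean of both mutants, where 3.99% and 3.61% of all probe sets did. The 0 calls do not show that the members were equal between strains.

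mtrr-1 had the largest differences among the members in both comparisons of n4503 nDf57. It lay 0.60 log2 above wild type in n4503 nDf57 (SE 0.19; 1.51-fold; unadjusted 95% interval 0.16 to 1.03; limma unadjusted p = 0.0130, adjusted p = 1.0). Against n4357 n4358 it was 0.69 log2 higher in n4503 nDf57 (SE 0.19; 1.61-fold; unadjusted 95% interval 0.25 to 1.12; limma unadjusted p = 0.00637, adjusted p = 0.977). In both comparisons the groups did not overlap, as for 4.02% and 3.37% of all probe sets in the same direction. In n4357 n4358 mtrr-1 differed from wild type by -0.09 log2 (SE 0.19), and by -0.24 without wild-type replicate 2 and 0.14 without wild-type replicate 3. With each array left out in turn, the n4503 nDf57 difference of mtrr-1 from wild type ran from 0.45 to 0.83 log2 and that from n4357 n4358 from 0.61 to 0.75. Without the 3 arrays lowest in the moulting genes, a choice made after seeing the data, these differences of mtrr-1 were 0.46 and 0.73 log2, with limma adjusted p-values of 0.891 and 0.444.

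For the other 6 genes no difference between strains had an unadjusted limma p under 0.05. With sams-1 read by 192492_at only, the differences in n4503 nDf57 against wild type ran from -0.23 log2 for sams-1 (SE 0.34) to 0.33 for mthf-1 (SE 0.27). That of mthf-1 was 0.026 without wild-type replicate 2 and 0.62 without wild-type replicate 1. On the same probe sets the differences in n4357 n4358 against wild type ran from -0.10 log2 for mel-32 (SE 0.11) to 0.16 for ahcy-1 (SE 0.16). The tightest interval was that of mel-32, -0.27 to 0.23 log2 in n4503 nDf57 and -0.35 to 0.15 in n4357 n4358 against wild type. The widest was that of sams-1 by 192492_at, -1.01 to 0.55 and -0.82 to 0.75 log2 in the same comparisons. All 3 sams-1 probe sets had negative differences in both mutants, between -0.25 and -0.04 log2. Taking 1 probe set per gene, 4 of 7 members were positive in the mean of both mutants, with a median of 0.09 log2, where all probe sets had 56.5% positive and a median of 0.02. Exact two-sided permutation of the 6 mutant against the 3 wild-type arrays gave p between 0.310 and 0.833 for the 9 member probe sets, where the smallest p that the 84 splits allow is 0.0119.

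**Figure D2:**
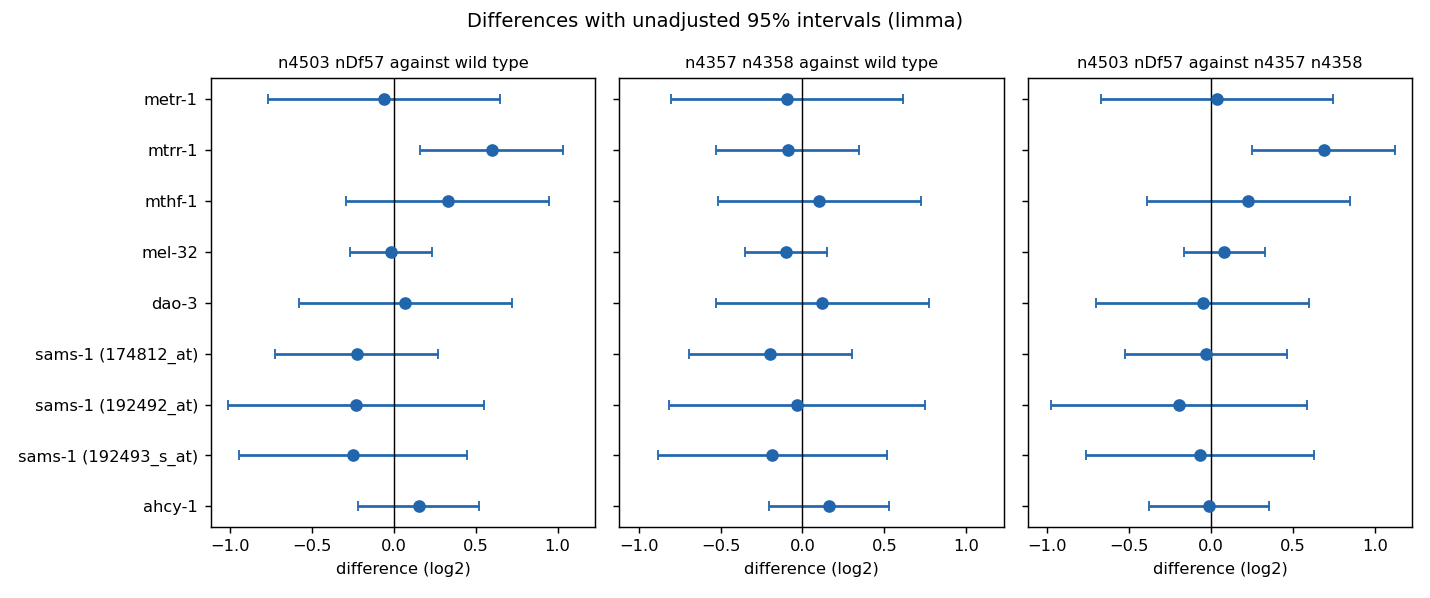
Differences in log2 with unadjusted 95% intervals from limma for the 9 member probe sets, with a panel each for n4503 nDf57 and n4357 n4358 against wild type and for n4503 nDf57 against n4357 n4358. Only the mtrr-1 intervals in the panels of n4503 nDf57 against each other group stay above 0, and no member passed after adjustment.

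Of the members mtrr-1 had the highest correlation with acdh-1, and differences between the members' correlations were not tested. mtrr-1 followed the order of the arrays by acdh-1 closely, with a Pearson r of 0.80 and a Spearman rho of 0.95 over the 9 arrays (exact two-sided permutation p = 0.00702 and 0.000353). Of the 22547 probe sets besides that of acdh-1, 109, or 0.483%, had an r with acdh-1 at least that high, mtrr-1 included. Without wild-type replicate 2 and n4357 n4358 replicate 2, the arrays farthest from the acdh-1 median, the r of mtrr-1 was 0.80 and its rho 0.93 over 7 arrays (exact permutation p = 0.0508 and 0.00675). Inside the groups, as deviations from the group means, the r of mtrr-1 was 0.63 and its rho 0.60, with permutation within groups giving p = 0.218 and 0.148. n4503 nDf57 was the highest group in both genes, so the pooled value holds the difference between strains as well. Leaving out single arrays kept the pooled r of mtrr-1 between 0.75 and 0.88. In all 9 probe sets were set against acdh-1, and these p-values are not adjusted for that.

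ahcy-1 and mthf-1 had intermediate correlations with acdh-1 that rested on few arrays. Over 9 arrays ahcy-1 had an r of 0.57 and a rho of 0.31 (exact permutation p = 0.104 and 0.428), and mthf-1 an r of 0.56 and a rho of 0.48 (exact permutation p = 0.122 and 0.194). Without the 2 arrays of lowest acdh-1 these r values were 0.15 for ahcy-1 and 0.12 for mthf-1 (exact permutation p = 0.790 and 0.782). Without wild-type replicate 2 alone, the array lowest in all 3 genes, r was -0.02 for ahcy-1 and 0.10 for mthf-1. mel-32 had an r of 0.31 with acdh-1, dao-3 one of 0.23, metr-1 one of -0.03 and sams-1 by 192492_at one of -0.02 (exact permutation p = 0.411, 0.549, 0.927 and 0.958). Low metr-1 and sams-1 levels lay on n4357 n4358 replicate 3, where acdh-1 was at 10.34 log2, and on wild-type replicate 2, where acdh-1 was lowest.

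**Figure D3:**
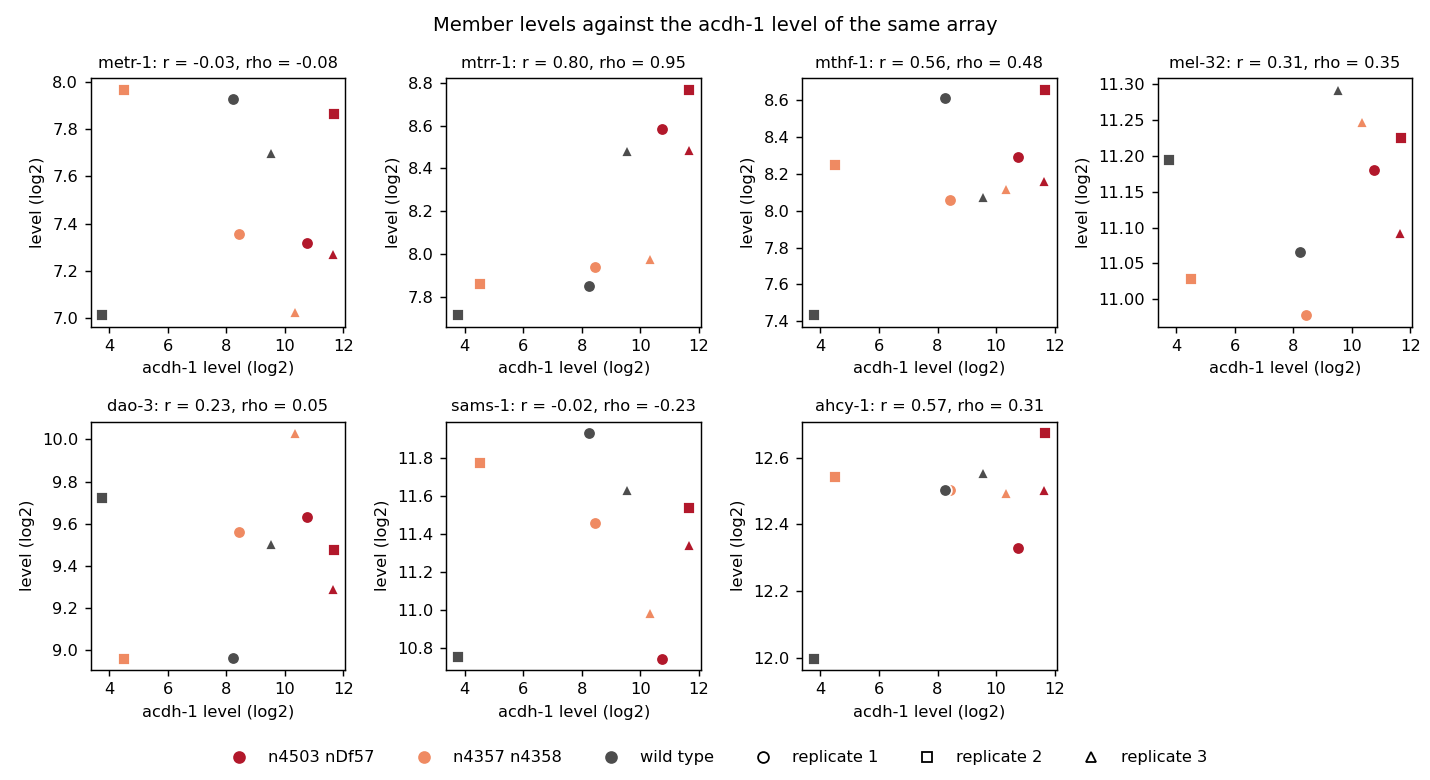
Level of each member in log2 against the acdh-1 level in log2 of the same array, coloured by group and shaped by replicate number, with Pearson's r and Spearman's rho over 9 arrays. mtrr-1 was higher on arrays with higher acdh-1 (rho = 0.95), while metr-1 and sams-1 showed no such order (rho = -0.08 and -0.23).

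In the fit across all probe sets, with a mean per group and the acdh-1 level as a covariate, no member had a slope past the threshold. The limma adjusted p was 1.0 for all 9 member probe sets, and 0% of the 22547 probe sets passed. At an unadjusted p under 0.05 this held for 0 of 9 member probe sets and for 2.93% of all probe sets. mthf-1 had the largest slope, 0.065 log2 per log2 of acdh-1 (SE 0.054), which was -0.038 without wild-type replicate 2 and 0.14 without n4357 n4358 replicate 2. The slope of mtrr-1 was 0.064 log2 per log2 of acdh-1 (SE 0.034; unadjusted 95% interval -0.015 to 0.143) and that of ahcy-1 0.051 (SE 0.029). Single arrays moved both, that of mtrr-1 to 0.025 without wild-type replicate 3 and 0.097 without n4357 n4358 replicate 2, and that of ahcy-1 to 0.0023 without wild-type replicate 2 and 0.096 without n4357 n4358 replicate 2. metr-1 had a slope of -0.0025 (SE 0.067). Of 7 members 6 had a positive slope, with a median of 0.046, against 48.9% positive and a median of -0.00081 over all probe sets.

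Levels inside the groups also went with the arrays that stood apart. On n4503 nDf57 replicate 1, n4357 n4358 replicate 3 and wild-type replicate 2, the arrays lowest in moulting genes, all 3 sams-1 probe sets and ahcy-1 had their 3 lowest levels. On the same arrays dao-3 had its 3 highest levels. Such a lowest trio was found in 9.25% of all probe sets and such a highest trio in 8.47%. For sams-1 by 192492_at these arrays stood at 10.75, 10.98 and 10.76 log2, against 11.34 to 11.93 on the other 6. For ahcy-1 the margin was narrow, with n4357 n4358 replicate 3 at 12.4956 log2 and n4357 n4358 replicate 1 at 12.5032. metr-1 was also low on n4357 n4358 replicate 3 and wild-type replicate 2, at 7.03 and 7.01 log2, but n4503 nDf57 replicate 3 lay below n4503 nDf57 replicate 1. Over the 9 arrays metr-1 and sams-1 by 192492_at had a Pearson r of 0.86, and dao-3 with sams-1 one of -0.79, pairs chosen after their values were seen and given as a description.

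**Figure D4:**
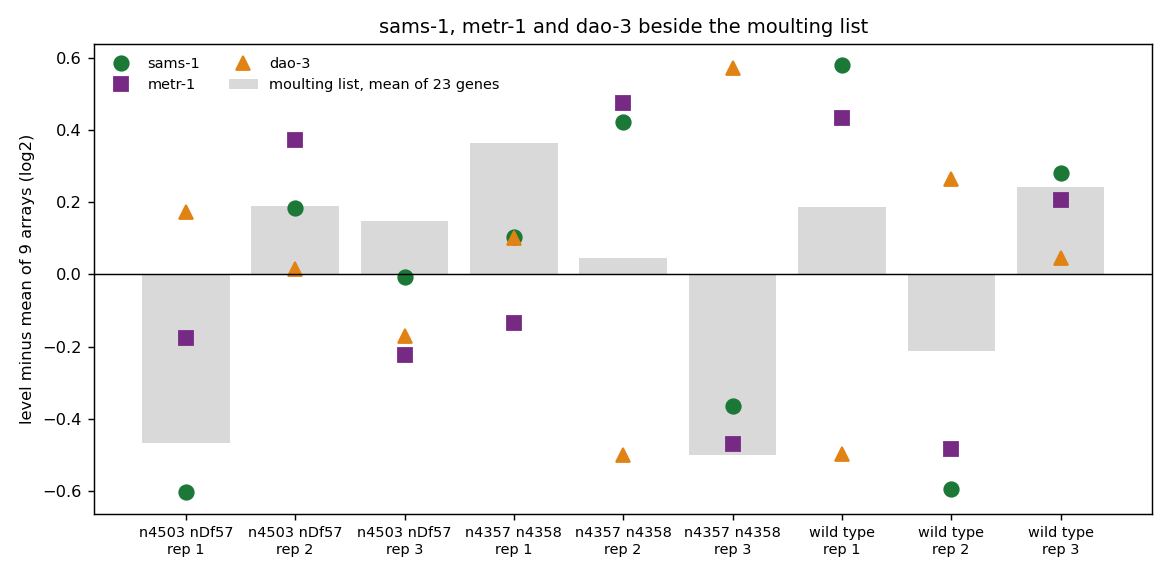
Levels of sams-1 (192492_at), metr-1 and dao-3 minus their mean over the 9 arrays, in log2 (points), beside the mean of the 23 moulting genes on the same scale (grey bars), for each array. Where the moulting mean was lowest, on n4503 nDf57 replicate 1, n4357 n4358 replicate 3 and wild-type replicate 2, sams-1 was lowest and dao-3 highest.

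A slope on the moulting list mean, added after seeing the data, was fitted in the same way. Of all probe sets 16.1% passed, 9.72% with a positive and 6.38% with a negative slope, and 0 of 9 member probe sets did. At an unadjusted limma p under 0.05 stood all 3 sams-1 probe sets, and 36.8% of all probe sets. This count rested on single arrays: 3628 probe sets passed with all arrays, 113 without n4357 n4358 replicate 3, 164 without n4503 nDf57 replicate 1, 1623 and 1323 without n4503 nDf57 replicates 2 and 3, 2417 without n4357 n4358 replicate 1 and 2189 without wild-type replicate 3. sams-1 by 192492_at came closest, at 1.06 log2 per log2 of the list mean (SE 0.31; limma adjusted p = 0.0519), and passed without n4357 n4358 replicate 1 (slope 1.46; adjusted p = 0.0200). The slope was 0.70 for metr-1 (SE 0.36) and -0.63 for dao-3 (SE 0.34), with limma adjusted p-values of 0.199 and 0.206. mtrr-1 had a slope of 0.19 (SE 0.26). Single arrays moved these slopes: without n4357 n4358 replicate 1 that of metr-1 was 1.1001 and that of dao-3 -0.95, without n4357 n4358 replicate 3 those of dao-3 and mtrr-1 were -0.29 and 0.41, and leaving out wild-type replicate 2 gave 0.48 for metr-1 and 0.028 for mtrr-1. Over the 9 arrays the mean of 5 vitellogenins ran from -0.72 to 0.59 log2 in n4503 nDf57, from -0.74 to 0.17 in n4357 n4358 and from -0.57 to 1.42 in wild type. That of 16 intestinal genes ran from -0.0036 to 0.03 log2, from -0.01 to 0.05 and from -0.18 to 0.10 in the same groups, that of 10 hypodermal genes from -0.21 to -0.02, from -0.32 to 0.33 and from -0.12 to 0.26, and that of 15 germline genes from -0.19 to 0.12, from -0.22 to 0.38 and from -0.40 to 0.21. The mean of 23 major sperm protein genes ran from -1.44 to 0.37, from -2.15 to 1.05 and from 0.33 to 1.42 log2. Their part in the levels of the members was not tested.

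Of genes around the cycle, none of 34 tested besides the members and acdh-1 passed the limma test in a comparison of strains or in the slope on acdh-1, where 0% of all probe sets did. In the propionate shunt hphd-1, its hydroxyacid-oxoacid transhydrogenase, had the smallest p, with a slope of 0.30 log2 per log2 of acdh-1 by 193016_s_at (SE 0.046; limma unadjusted p = 0.000248, adjusted p = 1.0). Of the 4 shunt genes besides acdh-1, all had positive slopes, with a median of 0.14, against 48.9% positive and a median of -0.00081 over all probe sets. At an unadjusted limma p under 0.05 stood 5 of 5 shunt genes and 6 of 7 genes of B12-dependent propionate breakdown in n4503 nDf57 against wild type, all higher, against 1 of 7 members and 2.83% of all probe sets. In n4357 n4358 against wild type 0 of 5 shunt genes and 2 of 7 genes of B12-dependent propionate breakdown did, against 3.99% of all probe sets. There 5 of 5 and 6 of 7 had positive differences, against 54.1% of all probe sets. Among regulators nhr-68, a nuclear receptor needed for the shunt's response to propionate, had a slope of 0.20 (SE 0.033). Among folate genes folt-2, a folate transporter, had one of 0.20 (SE 0.075). folt-2 stood at 9.69, 9.93 and 10.12 log2 in n4503 nDf57, at 7.71, 8.39 and 9.03 in n4357 n4358, against 8.54, 7.002 and 8.84 in wild type, so the n4503 nDf57 arrays lay above all others. Among all probe sets, 4.02% lay wholly above wild type in n4503 nDf57 and 3.37% wholly above n4357 n4358. The n4503 nDf57 arrays were above both groups also for mtrr-1 and, of the propionate genes, for acdh-1, ech-6, hach-1, hphd-1 by 193016_s_at, alh-8 and mmaa-1. The share of all probe sets above both groups at once was not counted. All 8 measured folate genes besides the members had positive slopes on acdh-1, with a median of 0.061, against 48.9% positive and a median of -0.00081 over all probe sets. Only 1 of the 8, folt-2, had an unadjusted limma p under 0.05, which 2.93% of all probe sets had. In the remaining lists the smallest p belonged to sams-5, a sams-1 paralog (slope 0.080, SE 0.055), cbs-2, a cystathionine beta-synthase (0.046, SE 0.051), pmt-2, a phosphoethanolamine methyltransferase that uses S-adenosylmethionine (0.045, SE 0.021), and pcca-1, of the B12-dependent propionate route (0.057, SE 0.027).

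**Figure D5:**
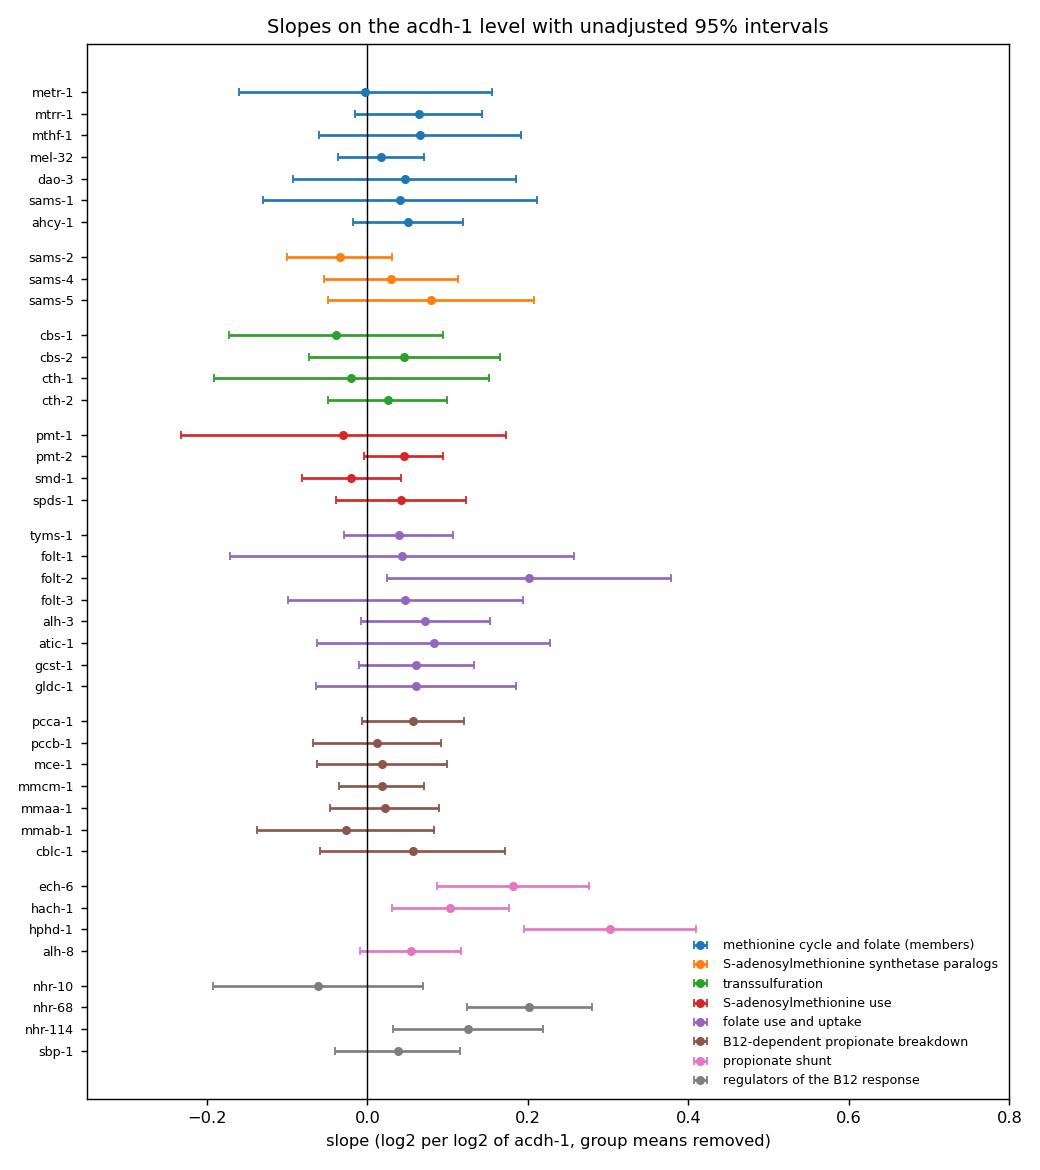
Slopes on the acdh-1 level, in log2 per log2 with group means removed, with unadjusted 95% intervals from limma, for the 7 members and the related lists. The member intervals all include 0, while those of ech-6, hach-1, hphd-1, folt-2, nhr-68 and nhr-114 do not, and none passed after adjustment.

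Lower in n4503 nDf57 than in wild type, where mtrr-1 was higher, was cbs-1, a gene chosen after its values were seen. It encodes the cystathionine beta-synthase that takes homocysteine out of the cycle. It stood at 8.11, 7.40 and 7.38 log2 in n4503 nDf57, at 7.95, 8.83 and 8.19 in n4357 n4358, against 8.74, 8.34 and 8.69 in wild type, so all n4503 nDf57 arrays lay below all wild-type arrays, as for 2.56% of all probe sets. The difference for cbs-1 was -0.96 log2 (SE 0.27; limma unadjusted p = 0.00693, adjusted p = 1.0). Its levels in n4503 nDf57 and n4357 n4358 overlapped. The other genes of its list differed from wild type in n4503 nDf57 by 0.34 log2 for cth-1, -0.01 for cth-2 and -0.08 for cbs-2. Also wholly below wild type in n4503 nDf57 was smd-1 by its probe set of higher mean (-0.34 log2, limma unadjusted p = 0.0254). On that probe set n4357 n4358 also lay wholly below (-0.44 log2, limma unadjusted p = 0.00728), as did 4.7% of all probe sets. Neither difference passed after adjustment. The other smd-1 probe set overlapped wild type in both mutants, at -0.27 and -0.18 log2 in that order. pmt-1, the other phosphoethanolamine methyltransferase, had the same 3 lowest arrays as sams-1, at 10.10, 10.10 and 10.43 log2, against 10.96 to 11.52 on the other 6, and its slope on the moulting list mean was 1.39 (SE 0.29; limma adjusted p = 0.0234). cbs-2 and folt-3, a folate transporter paralog, had negative slopes of -0.78 (SE 0.21) and -0.98 (SE 0.24), with limma adjusted p-values of 0.0429 and 0.0346. pmt-1, cbs-2 and folt-3 were 3 of 34 related genes, where 16.1% of all probe sets passed. Levels ran from 4.14 to 5.11 log2 for cbs-2 and from 3.63 to 4.97 for folt-3, mostly below the array medians of 4.76 to 4.83. The probe sets of pmt-1 and folt-3 are of a kind that may detect several related transcripts. None of these 3 calls held with every array left out in turn, since without n4357 n4358 replicate 3 the adjusted p was 0.139 for pmt-1, 0.220 for cbs-2 and 0.123 for folt-3, and without n4503 nDf57 replicate 1 it was 0.0901, 0.162 and 0.0613. Leaving out n4503 nDf57 replicate 2 or 3 also ended all 3 calls, at adjusted p between 0.0520 and 0.0884. Without n4357 n4358 replicate 1 or wild-type replicate 3 the calls of cbs-2 (0.0663 and 0.0681) and folt-3 (0.105 and 0.0501) ended, and without wild-type replicate 1 that of folt-3 (0.0542).

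The genes most alike to each member were sought among 13614 other genes by Pearson's r over the 9 arrays, as a description. For mtrr-1 they were hmgr-1, the reductase of the mevalonate pathway, and gta-1, a GABA transaminase, at r = 0.91 and 0.90. For metr-1 they were Y22D7AL.9 and rpl-3, a ribosomal protein gene, at 0.94 and 0.93, and rpl-3 spanned only 0.15 log2. For mthf-1 they were sqrd-1, a sulfide:quinone oxidoreductase, and hat-1, both at 0.95. For sams-1 they were T05C12.4 and meic-1 at 0.96 and 0.93, for dao-3 T08B1.4 and Y38F1A.8, both at 0.94, for mel-32 F21E9.6 and F56C3.8 at 0.97 and 0.95, and for ahcy-1 apb-1, an adaptin subunit, and dhp-2, a dihydropyrimidinase, at 0.99 and 0.98. The members were left out of this search, and so were related genes read only by probe sets of the shared kind. No related gene that was searched was among them.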

How the data were processed

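The authors' deposited table holds 1 log2 level per probe set and array. RMA and limma are the tools named, per the submitters' processing notes, with no version stated. RMA equalises arrays and compresses low levels, so a shift of most genes would be removed. Of 22625 probe sets 77 controls were left out. Symbols came from the platform annotation, and all 7 members matched the reference gene table (WBcel235) by gene ID. Groups came from sample titles. All 9 arrays entered 1 limma fit (limma 3.58.1, statmod 1.5.0, R 4.3.3) with a mean per group, and a further fit with the acdh-1 level as a covariate. Benjamini-Hochberg adjustment ran over every probe set, with a threshold of 0.05. sams-1 was represented by its probe set of highest mean. Exact permutations, tables and figures used Python 3.11.15, numpy 2.4.6, scipy 1.17.1 and matplotlib 3.10.9, and fits were tested on simulated data. The members and lists were chosen with earlier results of these data known. Named genes were all members, in each related list the genes past the test or else the smallest p of the acdh-1 slope, and the 2 genes most alike to each member, sought among probe sets not of the shared kind. Alternatives were a replicate block, a filter at the 30th percentile of level, a robust variance trend, cyclic loess, gene means, only the arrays compared, array weights, no shared probe sets, a moulting covariate, no group means and each array left out.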

Additional observations from a re-analysis of the deposited data

Results flagged for a closer look

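For mtrr-1 all 3 n4503 nDf57 arrays lay above the wild-type mean and all 3 n4357 n4358 arrays lay below it, with a difference of 0.69 log2 between the strains (SE 0.19). By limma this difference had an adjusted p of 0.977 and so did not pass the test. The place of the n4357 n4358 arrays below the wild-type mean rested on wild-type replicate 3, at 8.48 log2. All 3 of them, at 7.94, 7.86 and 7.98 log2, lay above wild-type replicates 1 and 2, at 7.85 and 7.71, and without wild-type replicate 3 the n4357 n4358 difference from wild type was 0.14 log2, against -0.09 with all arrays (SE 0.19).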

How the results depend on the processing

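No strain comparison and no slope on acdh-1 called a probe set in the limma fits as reported, and 637, 899, 815, 557 and 661 probe sets had an unadjusted p under 0.05 in n4503 nDf57 against wild type, n4357 n4358 against wild type, the mean of both mutants, n4503 nDf57 against n4357 n4358 and the slope. With array weights the same counts of calls were 37, 4, 2, 142 and 14693. The last used weights from 0.00908 to 261.8 whose estimation stopped before convergence, so 5 member slopes past the threshold there are not used. mtrr-1 in n4503 nDf57 against n4357 n4358 was called with array weights (adjusted p = 0.0497). Cyclic loess gave 1 call in n4503 nDf57 against wild type and 1 in the mean of both. The moulting covariate gave 1 and 2, and 3 in the slope. Single arrays left out gave 0 to 2, 0 to 1 in the mean, and 113 to 3266 in the slope on the moulting list. Same-numbered arrays of different groups had deviations correlating between -0.60 and 0.40 over 9 pairs. The arrays that stood apart in moulting genes carry different replicate numbers and enter these correlations. The correlations therefore cannot show whether same-numbered arrays were handled together, which the labels do not say. A replicate block gave 0 calls in every strain comparison and in the slope on acdh-1.

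The r of mtrr-1 with acdh-1 was 0.80 without the 2 arrays farthest from the median and 0.63 inside the groups, both past the threshold no longer (exact permutation p = 0.0508 and 0.218). That of sams-1 was 0.21 inside the groups. With single arrays left out r ran from -0.51 to 0.31 for metr-1, from 0.75 to 0.88 for mtrr-1, from 0.10 to 0.72 for mthf-1, from 0.11 to 0.56 for mel-32, from -0.093 to 0.57 for dao-3, from -0.54 to 0.23 for sams-1 and from -0.024 to 0.80 for ahcy-1, which passed without n4357 n4358 replicate 2 (0.80) or n4503 nDf57 replicate 1 (0.67).

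Of 706 recomputed member differences and slopes from limma 72 changed sign, 627 kept sign and call, and 7 gained a call. The recomputed correlations with acdh-1, given above, are not part of this count. Sign changes with array weights were metr-1 0.15, mel-32 0.023 in n4503 nDf57 against wild type, metr-1 0.18, dao-3 -0.24, sams-1 0.13 in n4357 n4358 against wild type, metr-1 0.16, dao-3 -0.063, sams-1 0.031 in the mean, metr-1 -0.035, dao-3 0.35, ahcy-1 0.11 in n4503 nDf57 against n4357 n4358, and metr-1 0.12, dao-3 -0.041 in the slope. The moulting covariate gave sams-1 0.074 in n4357 n4358 and metr-1 0.019, dao-3 -0.0046 in n4503 nDf57 against wild type. Without the 3 arrays lowest in the moulting list, added after seeing the data, mthf-1 was -0.19 and ahcy-1 -0.0056 in n4357 n4358 against wild type, mthf-1 -0.062 in the mean, and metr-1 -0.095, dao-3 0.12, ahcy-1 0.066 in n4503 nDf57 against n4357 n4358. Cyclic loess gave metr-1 -0.062 there. Slopes on acdh-1 that changed sign were metr-1 0.11 with the replicate block, mthf-1 -0.065 and sams-1 -0.068 without the 2 arrays farthest in acdh-1, added after seeing the data, and sams-1 -0.0031 without group means.

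With single arrays left out, differences that changed sign ran as follows in n4503 nDf57 against wild type: metr-1 -0.33 to 0.13, mel-32 -0.077 to 0.036, dao-3 -0.15 to 0.23, sams-1 -0.57 to 0.015, ahcy-1 -0.026 to 0.25. In n4357 n4358 against wild type they were metr-1 -0.36 to 0.12, mtrr-1 -0.24 to 0.14, mthf-1 -0.20 to 0.39, dao-3 -0.14 to 0.40, sams-1 -0.38 to 0.21, ahcy-1 -0.015 to 0.26. In the mean they were metr-1 -0.35 to 0.11, mthf-1 -0.088 to 0.50, dao-3 -0.12 to 0.26, sams-1 -0.47 to 0.11, ahcy-1 -0.0204 to 0.26. In n4503 nDf57 against n4357 n4358 they were metr-1 -0.18 to 0.29, dao-3 -0.33 to 0.20, sams-1 -0.40 to 0.035, ahcy-1 -0.10 to 0.075, and in the slope metr-1 -0.15 to 0.12, mthf-1 -0.038 to 0.14, mel-32 -0.000601 to 0.035, dao-3 -0.049 to 0.18, sams-1 -0.11 to 0.16. The cause of these shifts was not tested. Another acdh-1 probe set was not run, since there is 1, leaving out shared probe sets gave no value for mthf-1, mel-32 and dao-3, and the mean of both mutants uses all arrays.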
